A study of Mus musculus with 18 samples.

Results

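The genes described here make, carry, sense and remove retinoic acid, and they are Aldh1a1, Aldh1a2, Aldh1a3, Dhrs3, Rbp4, Crabp1, Crabp2, Rarb and Cyp26b1. They were chosen by name, as 9 of the 55453 gene symbols in a table of read counts from GFP+ Tcf21-lineage cardiac fibroblasts, and they were proposed with earlier results of these data in view. Their counts were taken from 18 libraries, 3 in each of 6 groups, and 8 of the 9 passed the filter on low counts and were tested. Cyp26b1 did not pass it.

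The cells came from C57BL/6J pups that carried Tcf21-MerCreMer and Rosa-mTmG. In these pups tamoxifen given at P1 switched labelled cells from tdTomato to GFP, so the sort followed cells that expressed Tcf21 at that time and their progeny. Pups without surgery made up the P2 baseline and P10 baseline groups. The others had surgery at one of these ages and were collected 3 days afterwards, either after apical resection (P2 resected +3 days, P10 resected +3 days) or after a sham procedure (P2 sham +3 days, P10 sham +3 days). The P2 surgery groups were thus collected at P5 and the P10 surgery groups at P13. The authors set P2 as a regenerative and P10 as a non-regenerative time point. All groups carried both alleles and the tamoxifen, the apical part of the ventricles was used, and the sex of the pups and their number per library were not given in the sources used here. By the methods, hearts of the P10 groups were digested for longer than those of the P2 groups. More days had also passed since tamoxifen in the P10 groups. Neither difference can be told apart from age here. The labels do not say that libraries came from separate animals, so p-values measure only the spread between these libraries, which may be technical.

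Between 10462737 and 22980554 reads were counted per library. Levels are given as CPM, the count of a gene per 1000000 reads of its library after scaling by the trimmed mean of M-values. Tcf21 was between 202 and 447 CPM and Pdgfra between 256 and 878 CPM in the 18 libraries, and the summed level of 10 fibroblast markers was between 55743 and 118411 CPM in the same libraries. The sorted RNA also held transcripts of other cells in amounts that differed between libraries. In these bulk samples fewer cells of a type and less RNA per cell cannot be told apart.

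Vitamin A reaches tissues as retinol bound to the plasma carrier Rbp4, is oxidised to retinaldehyde and then, by the enzymes of the Aldh1a family, to retinoic acid. Dhrs3 works the other way and reduces retinaldehyde to retinol, the Crabp proteins bind retinoic acid in the cytoplasm, and Cyp26 enzymes break it down. Retinoic acid acts through nuclear receptors of the Rar and Rxr families, which bind pairs of short repeats in DNA, and in the heart it is best known for its part in epicardial and early cardiac development, where Aldh1a2 is the main source.

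Rarb is both a receptor and a classical target of the pathway. Its promoter is shown because it holds a direct repeat of the type used by retinoic acid receptors. A half-site was AGGTCA, the consensus, or one of its close variants, which were AGTTCA as in the second repeat of Rarb, GGTTCA as in its first repeat, and lastly GGGTCA. The search took pairs in the same orientation and 5 bases apart, on both strands, in the 250 bases before and 50 bases after each RefSeq start in GRCm38.p6. Since the half-sites searched include both of Rarb's own repeat, its match follows from that choice. Of 32851 windows 32 (0.0974%) held such a pair, and of 11 windows for 7 members the one at Rarb did, which is given as a description. The only gene with a match among 51 further retinoid pathway genes was Cyp26a1, which encodes a retinoic acid degrading enzyme. In both sequences the capitals mark the half-sites, and the sequence is read 5′ to 3′ on the gene's own strand.
Rarb: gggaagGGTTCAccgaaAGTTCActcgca
Cyp26a1: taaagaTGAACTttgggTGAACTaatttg
Each stretch shown is 29 bases long and has 6 flanking bases on either side of the repeat. The Rarb stretch lies at chr14:16575507-16575535 on the minus strand, and the repeat within it is 53 to 37 bases before a RefSeq start that is inside the annotated gene. The Cyp26a1 stretch lies at chr19:37697770-37697798 on the plus strand, with the repeat 32 to 16 bases before its start, and the repeat reads in the opposite orientation to the gene. With 2 bases between the half-sites there were 88 windows (0.268%), and none belonged to a member. Aldh1a3 and Crabp2 had no window in the table searched.

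Age was the first comparison, and it asked how these genes differed between fibroblasts of the P10 groups and of the P2 groups. In what follows, P10 and P2 name these groups and not the day of collection. Means over all groups thus mix P10 with P13 hearts and P2 with P5 hearts. Over all groups, Aldh1a1, Dhrs3 and Rbp4 were higher at P10 and Rarb was lower. That is 3 higher and 1 lower of 8 tested, where 13.5% of all 16170 genes tested were called at an adjusted p under 0.05, 7.11% higher and 6.39% lower. The median log2 fold change was 0.60 over the 8 members and -0.06 over all genes tested. These tests are rows of edgeR's quasi-likelihood fit to all genes with Benjamini-Hochberg adjustment. As the members were chosen with results of these data known, the counts describe them and support nothing further.

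**Figure D1:**
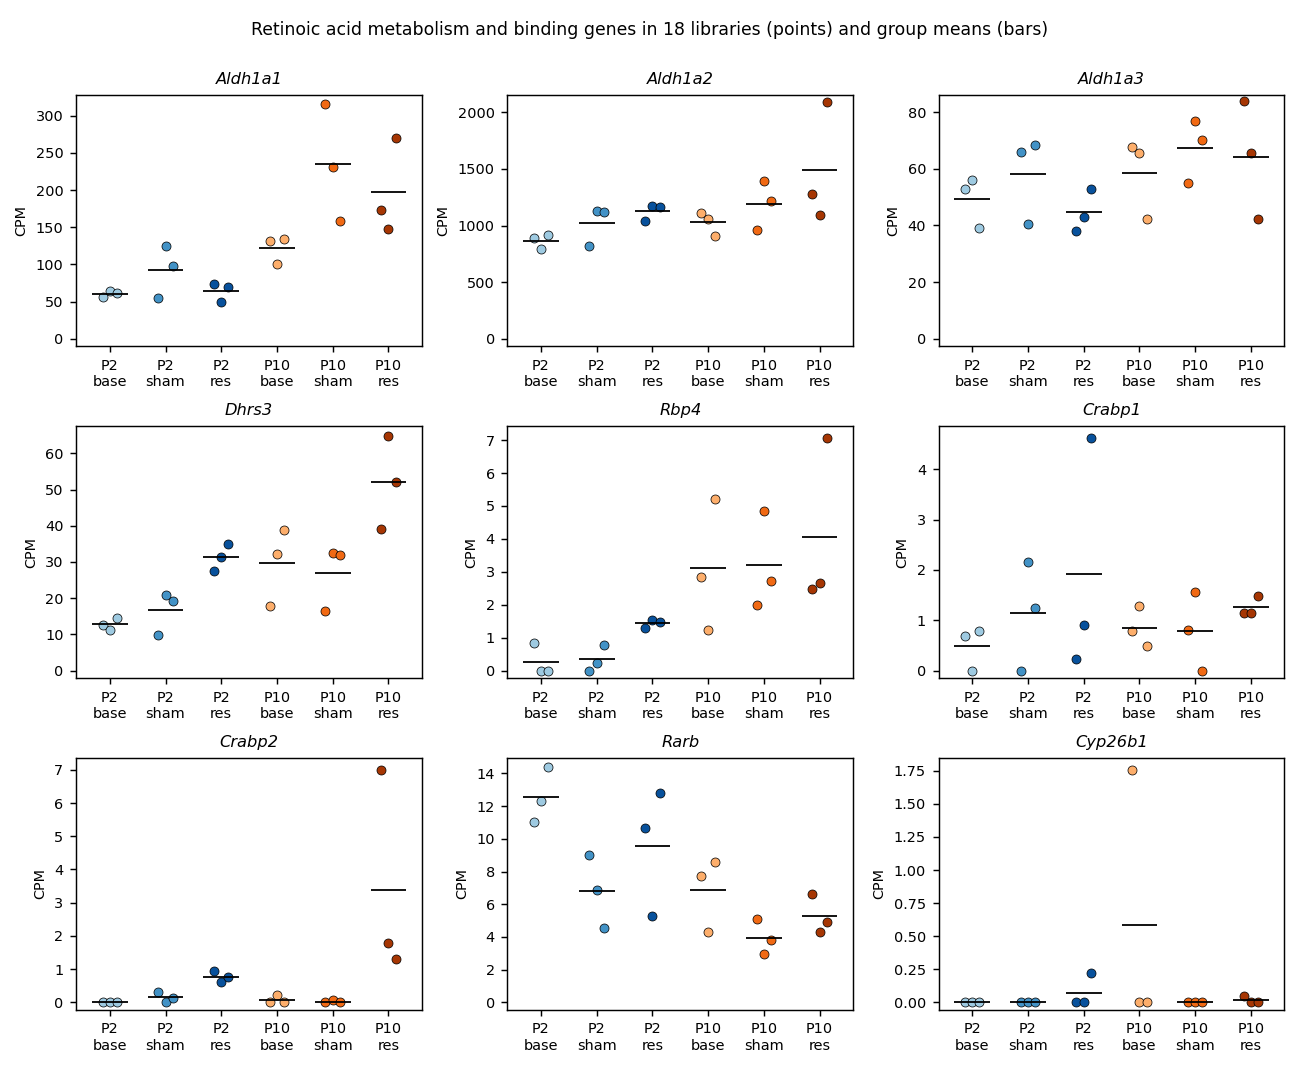
Level of each of the 9 genes in CPM (y axis, linear, own scale per panel) in the 6 groups (x axis; base is baseline, res is resected), with 1 point per library and a bar at the mean of 3. Aldh1a1 libraries at P10 sit between 101 and 315 CPM against 49.5 to 125 CPM at P2, and Crabp2 is above 1 CPM only in the 3 P10 resected libraries.

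Aldh1a1 encodes a retinaldehyde dehydrogenase that is widely used in postnatal tissues. It lies at chr19:20492715-20643465 on the plus strand of GRCm38. At P2 baseline its level was 56.4, 64.7 and 61.2 CPM, and at P10 baseline 131, 101 and 134 CPM. After sham surgery it was 55.0, 125 and 98.0 CPM at P2 and 315, 231 and 159 CPM at P10. After resection it was 73.4, 49.5 and 69.6 CPM at P2 and 173, 147 and 270.1 CPM at P10. Within each of the 3 treatments every P10 library was above every P2 library. Across treatments 1 P2 sham library reached into the range of the P10 baseline libraries.

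Over all groups Aldh1a1 averaged 185 ± 71.6 CPM at P10 and 72.6 ± 24.3 CPM at P2 (SD, n = 9 each). The log2 fold change was 1.32 (SE 0.18, adjusted p = 8.75e-05 by edgeR's quasi-likelihood test). This call held under all 22 alternatives, with adjusted p between 1.04e-11 and 0.000381. At baseline alone the log2 fold change was 1.01 (SE 0.31, adjusted p = 0.0776 by edgeR and 0.0208 by DESeq2), after sham surgery 1.34 (SE 0.31, adjusted p = 0.0252 by edgeR) and after resection 1.62 (SE 0.32, adjusted p = 0.0182 by edgeR). Each of the last pair of calls was lost when any of 4 libraries was left out, with adjusted p of up to 0.115 after sham surgery and 0.153 after resection. For sham these were P2 replicates 1 and 3 and P10 replicates 1 and 2, and for resection P2 replicates 1, 2 and 3 and P10 replicate 3. The sham call was also lost when only the groups compared were fitted (adjusted p = 0.225). Of the 75-base stretches of Aldh1a1 transcripts, 1.01% also occur in Aldh1a7, a close paralog.

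Aldh1a2, the main retinoic acid synthesis enzyme of the embryonic heart, was the most abundant of the 9 genes per kilobase of exon. Its mean over the 18 libraries was 494 CPM per kilobase of exon, against 26.1 for Aldh1a1, 12.3 for Aldh1a3 and 9.65 for Dhrs3 on the same scale. The other 5 genes had means between 0.0210 and 1.54 CPM per kilobase. It lies at chr9:71215789-71296243 on the plus strand.

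Its level was 886, 794 and 915 CPM at P2 baseline and 1109.8, 1059 and 911 CPM at P10 baseline. In the sham groups it was 815, 1127 and 1117 CPM at P2 and 963, 1389.9 and 1215 CPM at P10. In the resected groups it was 1039, 1169 and 1166 CPM at P2 and 1278, 1094 and 2091 CPM at P10. The ages overlapped within each treatment, and the highest library was P10 resected replicate 3. Means over the ages were 1234 ± 354 CPM at P10 and 1003 ± 152 CPM at P2 (SD, n = 9 each), and the gene was not called in any comparison (adjusted p = 0.157 over all groups, edgeR's quasi-likelihood test).

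Aldh1a3, the third enzyme of the family, lies at chr7:66390890-66427517 on the minus strand and was between 37.9 and 83.9 CPM. Its group means ran from 44.6 ± 7.63 CPM at P2 resected +3 days to 67.2 ± 11.2 CPM at P10 sham +3 days (SD, n = 3), and each group overlapped its neighbour in that order. It was not called in any comparison, with adjusted p = 0.228 over all groups by edgeR's quasi-likelihood test.

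Among the per-kilobase levels of the 3 Aldh1a genes, Aldh1a2 made up 94.5 ± 1.10% at P2 (SD, n = 9; range 93.3% to 96.4%) and 91.2 ± 2.53% at P10 (range 84.9% to 93.5%). The Aldh1a1 part was 3.13 ± 0.815% at P2 and 6.37 ± 2.51% at P10, and the Aldh1a3 part was 2.41% at both ages. The Aldh1a2 level was 32.1 ± 8.93 times that of Aldh1a1 at P2 and 15.7 ± 4.33 times at P10. The ranges of this ratio, 19.6 to 51.5 and 6.66 to 22.8, overlapped between the ages. The size of these shares and ratios depends on the length used. It counts all annotated exon bases of a gene, 4937 for Aldh1a1, 2264 for Aldh1a2 and 4617 for Aldh1a3. The shares follow from the levels given above and are not a separate test.

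**Figure D2:**
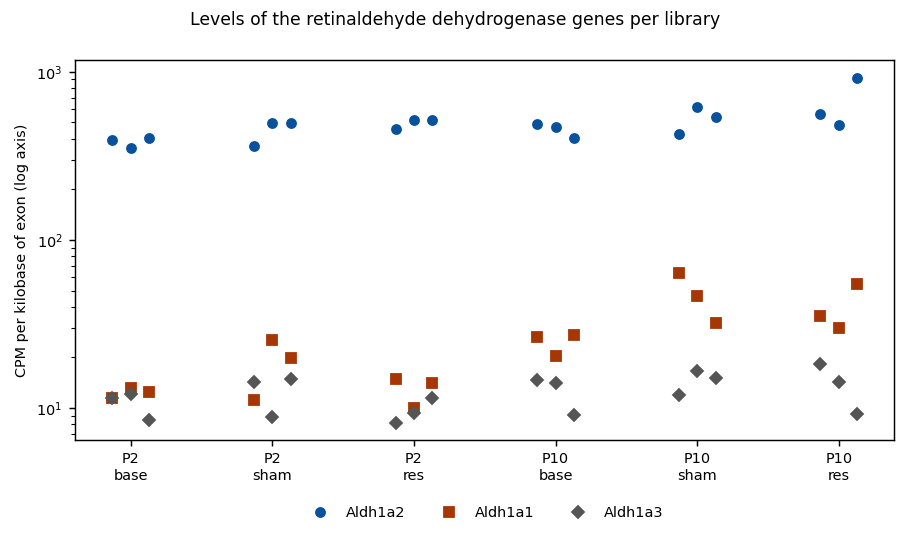
Level of the 3 retinaldehyde dehydrogenase genes in CPM per kilobase of exon (y axis, log scale) in each library of the 6 groups (x axis; base is baseline, res is resected). Aldh1a2 stays above 350 in every library, and Aldh1a1 moves from 10.0 to 25.4 at P2 up to 20.5 to 63.8 at P10.

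Dhrs3, which reduces retinaldehyde and so draws it away from retinoic acid synthesis, lies at chr4:144892827-144928209 on the plus strand. Its level was 12.7, 11.1 and 14.6 CPM at P2 baseline and 17.8, 32.3 and 38.8 CPM at P10 baseline. In the sham groups it was 9.88, 21.0 and 19.1 CPM at P2 and 16.6, 32.5 and 32.0 CPM at P10. In the resected groups it was 27.5, 31.5 and 35.1 CPM at P2 and 39.0, 64.7 and 52.2 CPM at P10. P10 libraries were all above P2 libraries at baseline and after resection, and overlapped them after sham surgery, where P10 replicate 1 was low.

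Dhrs3 averaged 36.2 ± 15.2 CPM at P10 and 20.3 ± 9.24 CPM at P2 (SD, n = 9 each), and the log2 fold change was 0.88 (SE 0.21, adjusted p = 0.00810 by edgeR's quasi-likelihood test). The call held in all 22 alternatives, with a highest adjusted p of 0.0223. At baseline the log2 fold change was 1.21 (SE 0.36) with adjusted p = 0.0685 by edgeR and 0.0108 by DESeq2. Without P10 baseline replicate 1, the low library of its group, the baseline value was 1.47 (adjusted p = 0.0198 by edgeR).

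Rbp4, the plasma carrier of retinol, was a low-count gene here, with 599 reads over the 18 libraries. It lies at chr19:38116629-38125281 on the minus strand. At P2 its level was 0.828, 0 and 0 CPM at baseline, 0, 0.230 and 0.783 CPM after sham surgery, and 1.29, 1.54 and 1.49 CPM after resection. At P10 it was 2.85, 1.23 and 5.23 CPM at baseline, 2.00, 4.85 and 2.73 CPM after sham surgery, and 2.48, 2.67 and 7.07 CPM after resection. The ages did not overlap within any treatment, while the P10 baseline library at 1.23 CPM was below all 3 P2 resected libraries.

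Rbp4 averaged 3.46 ± 1.86 CPM at P10 and 0.684 ± 0.650 CPM at P2 (SD, n = 9 each), and the log2 fold change was 2.72 (SE 0.81, adjusted p = 0.0326 by edgeR's quasi-likelihood test). The call was lost when any of 7 of the 18 libraries was left out, with a highest adjusted p of 0.0727 without P10 resected replicate 3. The others were P2 sham replicate 2, P2 resected replicates 1, 2 and 3, P10 baseline replicate 3 and P10 sham replicate 2. Without P2 baseline replicate 1, which leaves that group at 0 counts, the fitted value was 4.51. At baseline there were 123 reads at P10 and 18 at P2, a ratio of 8.996 after scaling for library size (exact 95% interval 5.46 to 15.7), and 5.75 without P2 baseline replicate 2. The fitted baseline difference was 3.43 on the log2 scale (SE 1.45, adjusted p = 0.208 by edgeR and 0.0456 by DESeq2). It was 3.24 after sham surgery (SE 1.44, adjusted p = 0.273 by edgeR) and 1.496 after resection (SE 1.33, adjusted p = 0.922 by edgeR). Without P2 baseline replicate 1, the baseline ratio was at least 34.3-fold higher, counted against a floor of 3 reads over the group. Such intervals and floors treat reads as independent and leave out the spread between libraries. The reads carry no molecular identifiers, so copies made in amplification are counted too. The intervals can therefore be too narrow even for counting error.

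Rarb encodes retinoic acid receptor beta and lies at chr14:16430839-16819156 on the minus strand. Its level was 11.04, 12.3 and 14.4 CPM at P2 baseline and 7.70, 4.28 and 8.58 CPM at P10 baseline. After sham surgery it was 8.999, 6.87 and 4.57 CPM at P2 and 5.09, 2.97 and 3.82 CPM at P10. After resection it was 10.7, 5.29 and 12.8 CPM at P2 and 6.61, 4.32 and 4.89 CPM at P10. P10 libraries were all below P2 libraries at baseline, and the ages overlapped after sham surgery and after resection.

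Rarb averaged 5.36 ± 1.87 CPM at P10 and 9.66 ± 3.45 CPM at P2 (SD, n = 9 each) and fell by 0.84 on the log2 scale (SE 0.26, adjusted p = 0.0418 by edgeR's quasi-likelihood test and 0.00919 by DESeq2). This call was near the threshold. It was lost when any of 12 of the 18 libraries was left out, with a highest adjusted p of 0.0985 without P2 resected replicate 3. It was kept without P2 sham replicate 3, P2 resected replicate 2, P10 baseline replicates 1 and 3, P10 sham replicate 1 or P10 resected replicate 1. It was also lost without the filter on low counts (adjusted p = 0.227). Exons of Top2b and Gm48162 on the other strand cover 38.4% of the exon bases of Rarb, and the counting did not use strand. Reads on more than 1 gene are left out by featureCounts unless it is told otherwise, so reads from that stretch may be missing from the count of Rarb.

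Across the single treatments, members whose P10 and P2 libraries did not overlap numbered 4 of 8 at baseline (22.4% of all genes tested), 2 of 8 after sham surgery (16.7%) and 4 of 8 after resection (23.3%). At baseline they were Aldh1a1, Dhrs3 and Rbp4, which were higher at P10, and Rarb. After sham surgery they were Aldh1a1 and Rbp4, and after resection Aldh1a1, Dhrs3, Rbp4 and Crabp2. The adjusted p passed 0.05 for 0 members at baseline (4.38% of genes called), where the unadjusted p was under 0.05 for 3 of them (18.7% of all genes) and DESeq2 called 3 (10.8%), in both cases Aldh1a1, Dhrs3 and Rbp4. Aldh1a1 alone passed after sham surgery (3.18%) and after resection (0.860%).

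**Figure D3:**
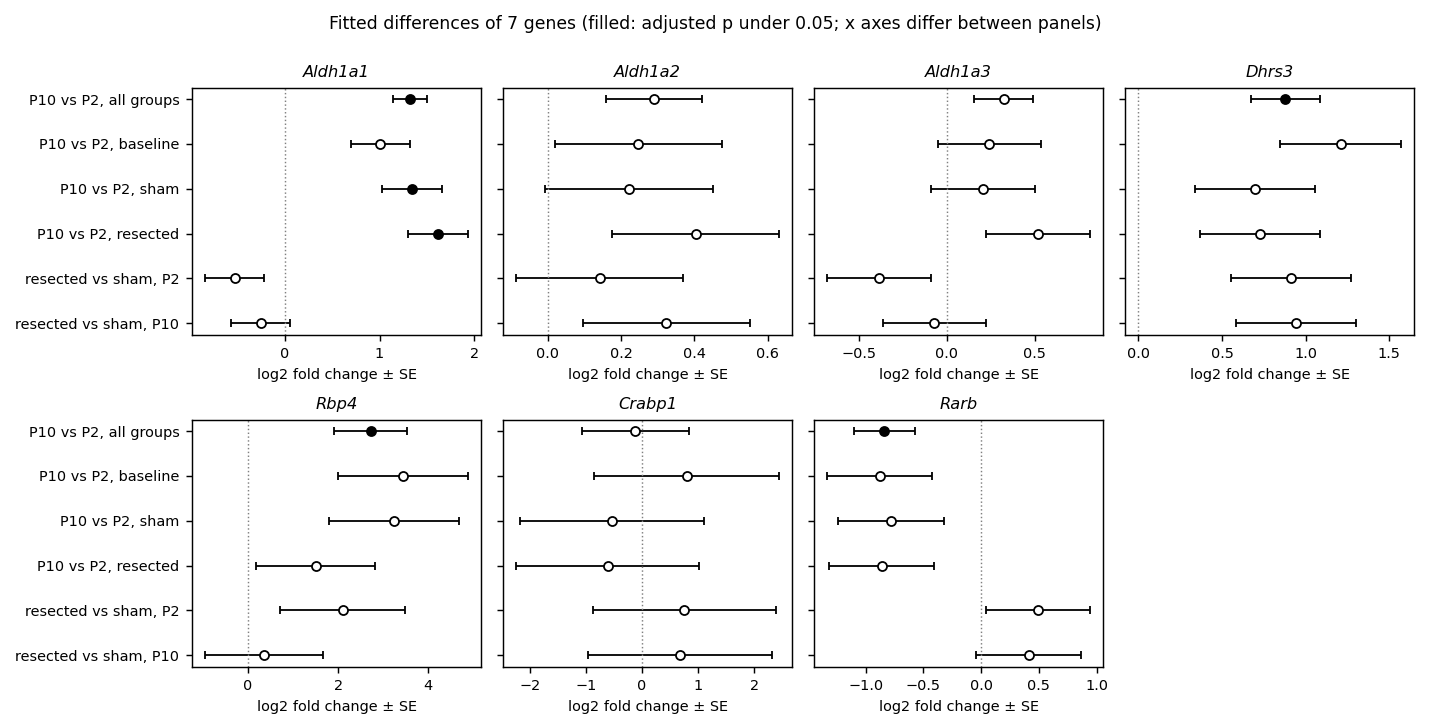
Log2 fold change (x axis, own scale per panel) with its SE (bars) for 7 genes in 6 comparisons (y axis) from edgeR's fit to all 18 libraries, with filled points for adjusted p under 0.05. Crabp2 and Cyp26b1 are left out because their counts were 0 in whole groups, and no point of the resection comparisons is filled.

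Crabp1 and Crabp2 encode the cellular retinoic acid binding proteins. Crabp1, at chr9:54764748-54773110 on the plus strand, was at 0 in 3 libraries and reached 4.62 CPM in P2 resected replicate 3, with all others at or below 2.17 CPM. All 6 groups overlapped along the order of their means, from 0.494 ± 0.431 CPM at P2 baseline to 1.92 ± 2.36 CPM at P2 resected +3 days (SD, n = 3), and it was not called in any comparison.

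Resection against sham at each age was the next comparison, and it asked how the genes differed 3 days after injury at the regenerative and at the non-regenerative time point. No gene of the 16170 passed an adjusted p of 0.05 in edgeR's test at P2 or at P10, so 0% were called. The unadjusted p was under 0.05 for 730 genes at P2 (4.51%) and 661 at P10 (4.09%), and DESeq2 called 15 (0.0932%) and 33 genes (0.205%), none of them a member. Resected libraries were all above sham libraries for Dhrs3, Crabp2 and Rbp4 at P2 and for Dhrs3 and Crabp2 at P10. Over all genes tested the groups did not overlap for 8.47% at P2 and 8.68% at P10. Crabp2 passed the filter on low counts only through its 6 resected libraries, so that its being tested depended on the same difference, and its values are a description. Both Dhrs3 and Crabp2 also stand in gene lists that the study drew from these libraries, which is not independent evidence.

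Dhrs3 was at 27.5 to 35.1 CPM in P2 resected and 9.88 to 21.0 CPM in P2 sham libraries, with means of 31.4 ± 3.79 and 16.7 ± 5.94 CPM (SD, n = 3 each). It was at 39.0 to 64.7 CPM in P10 resected and 16.6 to 32.5 CPM in P10 sham libraries, with means of 52.0 ± 12.9 and 27.0 ± 9.06 CPM. All 3 resected libraries were above all 3 sham libraries at each age. The log2 fold change was 0.91 at P2 (SE 0.36, unadjusted p = 0.0207, adjusted p = 1 by edgeR's quasi-likelihood test) and 0.94 at P10 (SE 0.36, unadjusted p = 0.0174, adjusted p = 1). These values were singled out after they were seen. The difference between the ages was 0.03 on the log2 scale (SE 0.51, adjusted p = 1), an interval wide enough to hold differences in either direction. With 1 library left out, the values ranged from 0.65 to 1.11 at P2 and from 0.69 to 1.11 at P10. In the order of group means Dhrs3 ran from P2 baseline through P2 sham, P10 sham, P10 baseline and P2 resected to P10 resected, and only the last step was without overlap.

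Crabp2, at chr3:87948666-87953376 on the plus strand, had 244 reads in all, and 186 of them were in P10 resected libraries. Its counts there were 141, 28 and 17, or 7.003, 1.78 and 1.32 CPM. The P10 sham libraries held 0, 1 and 0 reads and the P10 baseline libraries 0, 4 and 0. At P2 the resected libraries held 16, 14 and 14 reads (0.937, 0.598 and 0.770 CPM), the sham libraries 7, 0 and 2 and the baseline libraries 0 in each. Resected libraries were the highest at both ages, and P10 resected replicate 1 alone held more reads than all other libraries together.

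The scaled ratio of Crabp2 reads in P10 resected to P10 sham libraries was 216 (exact 95% interval 38.4 to 8592), on 1 read in the sham group. It was 89.2 (15.2 to 3599) without P10 resected replicate 1. Without P10 sham replicate 2, the only one with a read, the level was at least 52.5-fold higher. It was 140.0 without P10 sham replicate 1 and 135 without P10 sham replicate 3. At P2 the ratio of resected to sham was 4.88 (2.35 to 11.4), from 44 and 9 reads, and 13.9 (3.62 to 118) without P2 sham replicate 1 and 3.07 without P2 sham replicate 2. These intervals leave out the spread between libraries. In edgeR's quasi-likelihood test, which counts it, the P10 difference was 7.01 on the log2 scale (SE 1.98, unadjusted p = 0.00294, adjusted p = 1), and DESeq2 gave an adjusted p = 0.0548. The fitted P2 difference was 2.29 (SE 1.57, adjusted p = 1 by edgeR), and that between the ages in the resection effect was 4.72 (SE 2.31, adjusted p = 1 by edgeR). With so few reads in sham libraries, the fitted sizes depend on the prior count.

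Between the ages after resection, Crabp2 was higher at P10 in all 3 libraries, with a ratio of 5.09 (3.65 to 7.24) that was 2.10 (1.35 to 3.25) without P10 resected replicate 1. The log2 fold change was 2.12 (SE 1.54, adjusted p = 0.858 in edgeR's quasi-likelihood test). After sham surgery the order was the opposite, with 9 reads at P2 and 1 at P10, a P2 to P10 ratio of 8.71 (exact 95% interval 1.21 to 382) that was 3.06 (0.159 to 181) without P2 sham replicate 1 and at least 2.11 without P10 sham replicate 2, the only one of its group with a read. Leaving out P2 sham replicate 2 gave 13.8, and leaving out P10 sham replicate 1 or 3 gave 5.64 or 5.45. The fitted P10 against P2 value there was -2.60 on the log2 scale (SE 1.72, adjusted p = 0.498 by edgeR), and the groups overlapped. Over all groups it was 1.04 (SE 0.81, adjusted p = 0.443 by edgeR). No fold is given for P10 baseline against P2 baseline, where 4 reads in 1 library stood against 0.

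Rbp4 in P2 resected libraries was 1.29 to 1.54 CPM against 0 to 0.783 CPM in P2 sham libraries, which did not overlap. The scaled ratio was 4.99 (exact 95% interval 2.94 to 8.97), from 85 and 17 reads, and 12.5 without P2 sham replicate 3 and 3.16 without P2 sham replicate 1. The log2 fold change was 2.10 (SE 1.39, adjusted p = 1 in edgeR's quasi-likelihood test). The resection effect at P10 minus that at P2 was -1.75 (SE 1.87, adjusted p = 1 by edgeR). At P10 the resected and sham libraries of Rbp4 overlapped. Aldh1a1, Aldh1a2, Aldh1a3, Crabp1 and Rarb overlapped between resected and sham libraries at both ages. None of the 8 members was called for a difference between the ages in the resection effect (0% of genes called, 465 genes or 2.88% at an unadjusted p under 0.05, and 9 or 0.0559% called by DESeq2).

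Cyp26b1, the retinoic acid degrading enzyme of the list, lies at chr6:84571414-84593908 on the minus strand and had 34 reads in all. P10 baseline replicate 1 held 29 of them (1.76 CPM), P2 resected replicate 3 held 4 and P10 resected replicate 1 held 1. The other 15 libraries held none, and a count of 0 allows up to 3 reads in a library by counting error alone. Cyp26a1, which also encodes a retinoic acid degrading enzyme and was tested, had 317 reads in 9 libraries and reached 5.28 CPM in P2 resected replicate 3.

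The levels of markers of other cells are given here beside these results. The summed level of 12 macrophage markers was 75.3 to 469 CPM in P2 resected against 7.75 to 193 CPM in P2 sham libraries, and 80.6 to 1143 CPM in P10 resected against 104 to 385 CPM in P10 sham libraries. All 12 had a positive fold change at both ages, and none was called. P10 resected replicate 2 had the highest macrophage sum (1143 CPM) and the highest Dhrs3 (64.7 CPM) of the 18 libraries. In P10 resected replicate 3 the macrophage sum was 80.6 CPM, below all P10 sham libraries, and Dhrs3 was 52.2 CPM, above all of them. In P2 resected replicate 3 the sum was 75.3 CPM, below P2 sham replicates 2 and 3, and Dhrs3 was 35.1 CPM, above all P2 sham libraries. In P2 resected replicate 1 the sum was 469 CPM, the highest at P2, and Dhrs3 was 27.5 CPM, the lowest of its group.

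Markers of 4 further cell types were compared between resected and sham libraries in the same way, and none was called. Of 9 endothelial markers, 8 had a positive fold change at P2 (median 0.74 on the log2 scale) and 7 at P10 (median 1.08). Of 9 mural cell markers, 8 were positive at P2 and 5 at P10, and of 10 cardiomyocyte markers 2 and 8. The 3 adipocyte markers tested were all positive at P10 (median 1.63) and none was at P2, and P10 resected replicate 1 had the highest adipocyte sum of the 18 libraries, at 402 CPM. The part of these lists, and of the macrophage markers, in the Dhrs3 and Crabp2 values was not tested.

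The 12 epicardial markers summed to 51.5 to 118 CPM in P10 resected against 31.3 to 41.8 CPM in P10 sham libraries, with a positive fold change for 10 of the 10 tested and none called. At P2 they summed to 64.8 to 84.0 CPM in resected and 70.7 to 77.1 CPM in sham libraries, with 5 of 10 positive. P10 resected replicate 1, the highest Crabp2 library, also had the highest epicardial sum and was the only library with reads for all 12 markers, among them Upk3b at 16.5 CPM and Msln at 14.4 CPM. In P10 resected replicate 3, 7 of the 12 markers were at 0, among them Upk3b, Upk1b, Krt8, Krt18 and Lrrn4, and Crabp2 was 1.32 CPM. Stra6, the cell-surface receptor for Rbp4 and a member of the pathway list, was at 3.28, 1.08 and 1.40 CPM in the P10 resected libraries and at or below 0.711 CPM elsewhere. It is singled out here after its values were seen. Of its 120 reads 101 lay in the P10 resected libraries, so its passing the filter depended on that group, and its values are a description. The part of epicardial cells in the Crabp2 and Dhrs3 values was not tested.

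**Figure D4:**
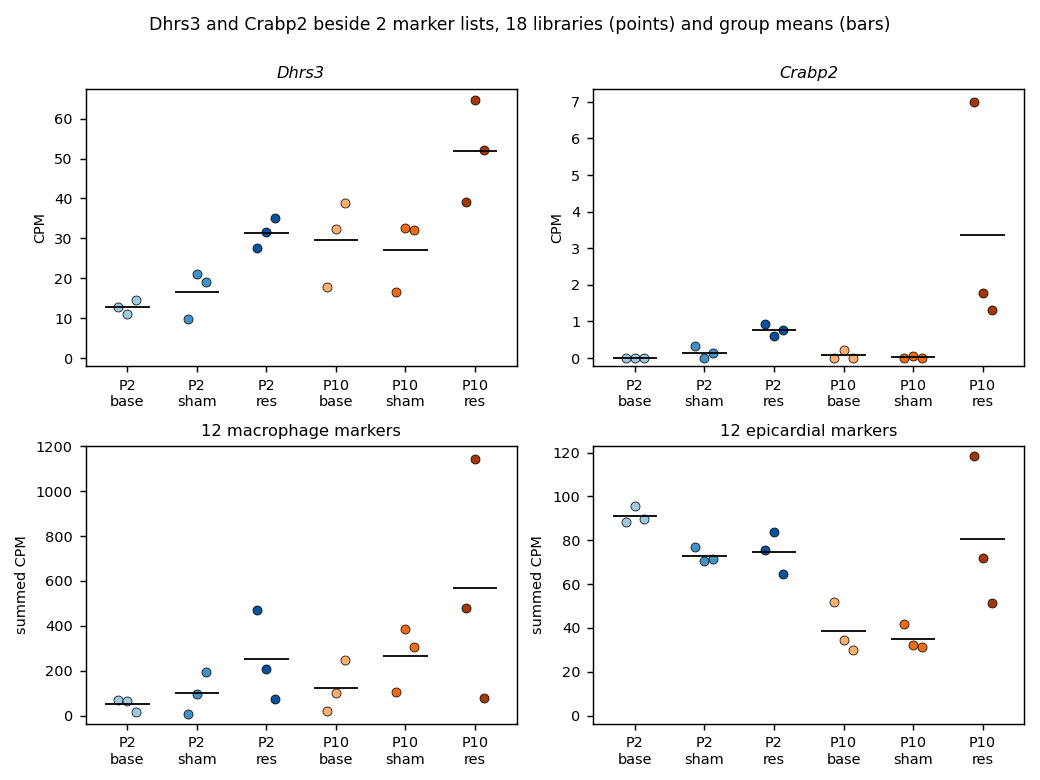
Dhrs3 and Crabp2 in CPM (upper panels) and the summed CPM of 12 macrophage and 12 epicardial markers (lower panels) in the 6 groups (x axis; base is baseline, res is resected), with 1 point per library and a bar at the mean of 3. P10 resected replicate 1, the leftmost point of its group, is highest for Crabp2 and for the epicardial sum, and Dhrs3 is above sham in every resected library at both ages.

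With age, 11 of 12 macrophage markers had a positive fold change over all groups (1 called), 3 of 9 mural cell markers were called higher, 6 of 10 cardiomyocyte markers were called lower, and the epicardial markers had 1 of 10 called lower. By treatment, 0 of 10 epicardial markers had a positive fold change at baseline (median -3.18 on the log2 scale, 1 called lower), and 8 of 10 had one after resection (median 1.39, none called), where Crabp2 was also higher at P10. Of the fibroblast markers, 3 were called higher and 1 lower of 10. Aldh1a1, Dhrs3, Rbp4 and Rarb differed alongside these lists, whose part in the age differences was not tested.

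The rest of the pathway was read from lists of 51 genes, of which 30 were tested. Over all groups 6 were called higher at P10 (7.11% of all genes) and 1 lower (6.39%), and the median log2 fold change was 0.24 against -0.06 over all genes. The 2 enzymes called were Rdh10 and Dhrs7. Rdh10, which oxidises retinol to retinaldehyde in the step before the Aldh1a enzymes, was 74.4 ± 24.3 CPM at P10 and 44.5 ± 12.7 CPM at P2 (SD, n = 9 each), and the log2 fold change was 0.75 (SE 0.19, adjusted p = 0.0147). Dhrs7, a short-chain dehydrogenase, was 138 ± 19.02 and 72.0 ± 11.4 CPM, a log2 fold change of 0.93 (SE 0.13, adjusted p = 9.04e-05), and its ages did not overlap. The other 9 enzymes tested were not called.

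Of the 5 receptors beside Rarb, 3 were higher at P10. Rarg, retinoic acid receptor gamma, was 25.3 ± 5.21 CPM at P10 and 16.2 ± 4.02 CPM at P2 (SD, n = 9 each), and the log2 fold change was 0.65 (SE 0.17, adjusted p = 0.0176). The retinoid X receptors, which pair with the Rar proteins on DNA, gave log2 fold changes of 0.44 for Rxra (SE 0.14, adjusted p = 0.0461) and 0.76 for Rxrb (SE 0.19, adjusted p = 0.0143). Rara, retinoic acid receptor alpha, was 57.0 ± 10.6 and 47.3 ± 11.9 CPM and was not called (adjusted p = 0.255). Rxrg averaged 1.52 CPM at P10 and 0.245 CPM at P2 (adjusted p = 0.0570 by edgeR and 0.0207 by DESeq2). So Rarb was the receptor called lower, and Rarg, Rxra and Rxrb were those called higher, in edgeR's quasi-likelihood test. The Rarb call was near the threshold, as given above, and the alternatives were not followed for the other receptors.

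Fabp5, a fatty acid binding protein that can also carry retinoic acid, was 99.7 ± 12.1 CPM at P10 and 276 ± 111 CPM at P2 (SD, n = 9 each) and fell by 1.40 on the log2 scale (SE 0.15, adjusted p = 5.58e-06). Its P10 libraries were all below its P2 libraries, and 3.03% of its 75-base stretches also occur in Gm6166 or Gm14328. Rarres2, a retinoic acid responsive gene that encodes chemerin, was 283 ± 79.8 and 165 ± 87.9 CPM, a log2 fold change of 0.84 (SE 0.18, adjusted p = 0.00448), and 33.6% of its exon bases overlap Lrrc61. These adjusted p-values are from edgeR's quasi-likelihood test.

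**Figure D5:**
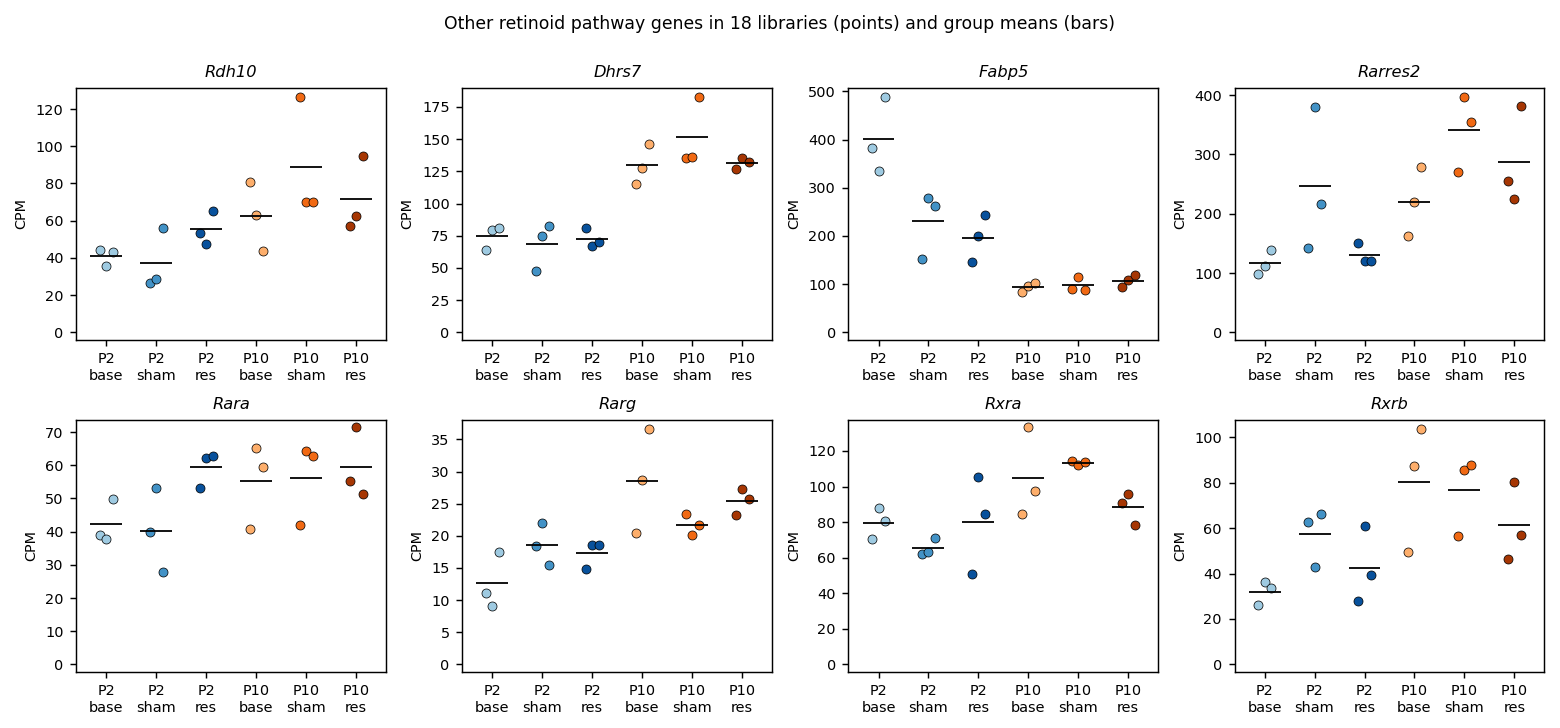
Level in CPM (y axis, own scale per panel) of 8 further retinoid pathway genes in the 6 groups (x axis; base is baseline, res is resected), with 1 point per library and a bar at the mean of 3. Dhrs7 and Fabp5 separate the P10 from the P2 libraries in opposite directions, and Rara overlaps between the ages.

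Within single treatments the pathway lists gave 3 calls at baseline (4.38% of all genes) and 3 after sham surgery (3.18%). At baseline Rarg (log2 fold change 1.18, SE 0.30, adjusted p = 0.0337) and Rxrb (1.32, SE 0.34, adjusted p = 0.0341) were higher at P10, and Fabp5 fell by 2.09 (SE 0.26, adjusted p = 0.000213). After sham surgery Rdh10 (1.27, SE 0.34, adjusted p = 0.0496) and Dhrs7 (1.15, SE 0.22, adjusted p = 0.00711) were higher, and Fabp5 fell by 1.25 (SE 0.25, adjusted p = 0.00952). None of the 30 was called between the ages after resection, or between resected and sham libraries at either age, in edgeR's quasi-likelihood test. DESeq2 called 4 between the ages after resection (4.21% of genes with an adjusted p), with Dhrs7, Rarres2 and Tgm2 higher at P10 and Fabp5 lower. The ages did not overlap there for 8 of the 30 (23.3% of all genes). Tgm2, a transglutaminase induced by retinoic acid, is singled out here after its values were seen, and 21.8% of its exon bases overlap Gm20412 or Rprd1b. It was at 51.2, 89.6 and 66.3 CPM in P10 resected, 21.6, 34.7 and 19.3 CPM in P2 resected and 22.9, 28.0 and 28.7 CPM in P10 sham libraries. The log2 fold change between the ages after resection was 1.45 (SE 0.47, adjusted p = 0.227 by edgeR and 0.0491 by DESeq2), and that of P10 resected against P10 sham was 1.38 (SE 0.47, adjusted p = 1 by edgeR and 0.424 by DESeq2).

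The genes whose log2 CPM most resembled a member over the 18 libraries are given as a description, since libraries share group and composition. For Aldh1a1 they were Cd302, Rnase4 and Selenop, with Pearson r of 0.94, 0.93 and 0.93, and 0.74, 0.85 and 0.82 with the group means subtracted. For Dhrs3 they were Pld3, Ctsd and 2810433D01Rik, with r of 0.89, 0.89 and 0.88, and 0.94, 0.82 and 0.63 with the group means subtracted. Rarb was most like Sox11, Fat4 and Asxl3 (0.88, 0.87 and 0.86), and Aldh1a2 most like Cfb, Pdpn and Olfml3 (0.88, 0.85 and 0.81). Aldh1a3 was most like Tex26, Plg and Setd3 (0.81, 0.79 and 0.78). For the low-count members Rbp4, Crabp1 and Crabp2 the likeness rests on few reads and no gene is named.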

How the data were processed

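Bulk RNA from sorted GFP+ cells was amplified (SMARTer), and Nextera XT libraries gave single-end reads of 75 bases. Per the submitters' processing notes and the methods, the authors trimmed reads with fastp 0.20.0, mapped them with STAR 2.7.0f to GRCm38.p6 with GENCODE annotation, and counted exon reads per gene symbol with featureCounts of Subread 1.6.4, without strand. The deposited values are these counts, not normalized. Reads with several mapping places, or on several genes at once, are dropped by featureCounts unless it is told otherwise, which lowers the counts of overlapping genes.

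The tests used edgeR 4.0.16 and R 4.3.3. Of 55453 symbols, 28906 had a count and 16170 passed filterByExpr (minimum count 10, minimum total 15). After TMM scaling, all 18 libraries entered 1 quasi-likelihood fit with a mean for each group, p-values were adjusted by Benjamini-Hochberg over all genes tested, and genes under 0.05 were called. The comparisons were P10 against P2 (all groups, baseline, sham, resected), resected against sham at each age, and the difference of the last pair. DESeq2 1.42.0, DESeq2 size factors, no filter, the compared groups alone, a replicate block and each library left out were the alternatives. SE is the log2 fold change over the root of F. A group at 0 was given a floor of 3 reads, and intervals are exact at 95%. Levels per kilobase, positions and overlaps use the GENCODE exons of GRCm38, 1 release from the one used for counting.

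The members, the pathway and marker lists, the comparisons and the alternatives were chosen with earlier results of these data known, and the 2 Dhrs3 values of resected against sham were added after they were seen. All 9 members are named. Fold change, SE and adjusted p are given where edgeR or DESeq2 called a member or its log2 fold change was at least 1 in size (other than Crabp2 at baseline, with a group at 0), and for pathway genes called over all groups and the receptors. The 3 genes most alike were ranked by Pearson r of log2 CPM. No replicate pair was within sampling noise (chi-square per gene at least 27.2). Of 45 same-number correlations of deviations, 15 were over 0.1 (range -0.13 to 0.38). In P10 against P2 after resection all 3 were (0.121, 0.189 and 0.130). All 3 were also over 0.1 for P2 sham with P10 baseline (0.3775, 0.1457 and 0.1505). The same held for P10 baseline with P10 sham (0.3275, 0.1074 and 0.1255), and neither of these pairs of groups was compared here. No label gives a pairing, so the main tests are unpaired and the replicate block is an alternative only. In P10 against P2 after resection the replicate block gave 186 calls, against 139 without it, and Aldh1a1 was called in both.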

Additional observations from a re-analysis of the deposited data

How the results depend on the processing

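Of 308 alternatives for the 22 member differences followed, 270 kept the direction and the side of the threshold, 29 lost a call, 8 gained one and 1 turned the direction, which was Crabp2 over all groups (1.04, and -0.16 without P10 baseline replicate 2; range with 1 library left out -0.16 to 1.45). The losses were 13 for Rarb and 7 for Rbp4 over all groups and 5 and 4 for Aldh1a1 after sham surgery and resection, and the gains were for Aldh1a1, Rbp4 and Dhrs3 at baseline. Calls over all genes were 2183 over all groups, 709 at baseline, 515 for sham, 139 for resected and 0 for resected against sham at each age and for the difference of the last pair. DESeq2 gave 1599, 1175, 496, 15, 33 and 9 for the last 6 of these. Without the filter there were 1155 at baseline, 911 for sham, 526 for resected, 24 and 76 for resected against sham at P2 and P10, and 30 for their difference. With only the compared groups fitted there were 296 at baseline, 134 for sham and 315 for resected. With 1 library left out the counts ranged from 1742 to 3034 over all groups, 292 to 1273 at baseline, 328 to 424 for sham, 33 to 136 for resected, 0 to 5 for resected against sham at P10 and 0 to 4 for the difference. The cause of these changes was not tested. The replicate block gave 1 call for resected against sham at each age and called Dhrs3 at baseline (adjusted p = 0.0247). It changed no other member call, including those between the ages after resection. No value could be had for Crabp2 at baseline without P10 baseline replicate 2, since both groups were then at 0. Rbp4, Crabp1, Crabp2 and Cyp26b1 are limited by depth, with at most 141 reads in a library.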
